A study of Homo sapiens with 6 samples.

Results

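The genes described here are 9 members of the human HOXA cluster (HOXA2, HOXA3, HOXA4, HOXA5, HOXA6, HOXA7, HOXA9, HOXA10 and HOXA11), found by symbol among the 62703 gene identifiers counted in each library. They were measured by total RNA sequencing of the SEM cell line, which was established from human B-lineage acute lymphoblastic leukaemia and bears a KMT2A::AFF1 fusion, as 3 libraries of knocked-down cells (KD) and 3 of negative control cells (NC). KD cells received 2 different DsiRNAs (interfering RNA duplexes that Dicer cuts) directed at the back-splice junction of AK_8_2, a circular transcript of the fusion, and NC cells a commercial non-targeting duplex. Both groups went through a reverse transfection with Lipofectamine RNAiMAX and a forward one 24 h later. All libraries come from 1 cell line, the labels describe the replicates as independent without saying how they were separated, and a count per gene does not measure AK_8_2 or the extent of its silencing. In RNA from a population of cells, fewer cells that express a gene and less RNA per cell cannot be told apart.

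HOX genes encode transcription factors that bind DNA through a homeodomain and are arranged in 4 clusters (HOXA, HOXB, HOXC and HOXD). Along a cluster, genes at one end pattern the head and neck of the embryo and genes at the other end the lower trunk and distal limbs. In blood formation HOXA9, HOXA10 and their neighbours are active in stem and progenitor cells and are turned down as cells mature. KMT2A, a histone H3 lysine methyltransferase, maintains HOX expression, and KMT2A fusion proteins keep HOXA genes active in many leukaemias, in which HOXA9 works together with the cofactor MEIS1.

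Counts assigned to genes ranged from 16531673 to 26694160 in KD and from 14750579 to 24186646 in NC libraries. The libraries numbered 1 stood apart in both groups: 50.03% (KD) and 48.6% (NC) of records were outside annotated features, while replicates 2 and 3 had 11.3% to 17.3%, and 53121 and 52077 genes had at least 1 count, against 30641 to 32311. The 10 listed markers of B-cell precursors together had 1515 to 2036 CPM in KD and 1569 to 2049 CPM in NC libraries. CPM are counts scaled to a common library size with TMM factors. PAX5 and EBF1 were among the most counted. Outside replicate 1, DNTT had no more than 3 counts and RAG1 had 9 to 13. The 9 listed T-cell and NK markers together had 91.1 to 99.4 CPM in KD and 90.5 to 98.2 CPM in NC, most of it from TRAC, and 7 of the 9 had at most 5 counts in each library of replicates 2 and 3. The same held for 5 of 10 myeloid, 6 of 6 erythroid and 4 of 8 stromal and endothelial markers. The sums of these lists were 26.7 to 38.2, 0.196 to 3.27 and 31.9 to 89.1 CPM in KD and 28.5 to 36.9, 0.131 to 3.23 and 30.9 to 81.3 CPM in NC. CSF1R was the highest myeloid marker, at a mean of 17.7 CPM in KD and 18.4 in NC. PECAM1 was the highest stromal and endothelial marker, at 38.8 CPM in KD and 38.9 in NC.

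The 9 genes lie on the minus strand of chromosome 7 (GRCh38), between position 27100354, the 3′ end of HOXA2, and position 27185223, the 5′ end of HOXA11, a span of 84870 bases. In GENCODE 29 they are crowded with other genes, so their counts depend on how overlapping reads were assigned. Of the exon bases of HOXA7 (27153716 to 27157936), 62.5% are also exon bases of other genes, most of them of HOXA-AS3, a non-coding gene on the opposite strand. The share was 47.3% for HOXA4 (27128507 to 27130799), 40.1% for HOXA6 (27145396 to 27150603), 31.1% for HOXA11 (27181510 to 27185223), 27.0% for HOXA9 (27162435 to 27175180), 26.3% for HOXA10 (27170591 to 27180261) and 17.9% for HOXA3 (27106184 to 27152581). HOXA2 (27100354 to 27102811) and HOXA5 (27141052 to 27143668) had none. In each library 2.58% to 5.94% of records were set aside as ambiguous between genes. The identifier ENSG00000257184, a coding gene annotated across HOXA9 and HOXA10 whose exons are wholly shared with other genes, had 0 counts in all 6 libraries, and so had MIR196B, a microRNA gene inside the annotated span of HOXA9. A 0 for such a gene therefore does not show that its RNA was absent, and reads of shared bases may be missing from the totals of the HOXA genes beside it.

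HOXA7, HOXA9 and HOXA10 carried most of the cluster's RNA. Per library, these genes together made up 90.04%, 90.3% and 91.1% of the counts of the 9 genes in replicates 1, 2 and 3 of KD, and 89.8%, 88.6% and 90.1% in NC replicates 1, 2 and 3. HOXA7 and HOXA9 were both recurrently activated together with Meis1 in a mouse strain prone to myeloid leukaemia, and HOXA10 regulates the expansion and differentiation of blood progenitors. Levels of different genes are given as CPM per kb of exon length. HOXA7 stood at 34.3 ± 3.81 CPM per kb in KD libraries, against 32.2 ± 4.63 in NC libraries (SD, n = 3 each), a level above that of 93.4% to 94.9% of 19848 protein-coding genes in the 6 libraries. HOXA9 had 25.1 ± 2.27 CPM per kb in KD libraries, against 24.0 ± 1.52 in NC libraries (SD, n = 3 each), above 90.3% to 92.9% of these genes. HOXA10 had 12.3 ± 1.00 CPM per kb in KD libraries, against 12.3 ± 0.647 in NC libraries (SD, n = 3 each), above 81.9% to 83.4% of them.

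HOXA11 lies 1248 bases beyond HOXA10 and was nearly silent in the libraries of replicates 2 and 3. HOXA11, which in mice patterns the forearm, kidney and uterus, had 15, 2 and 2 counts in replicates 1, 2 and 3 of KD, and 13, 0 and 1 counts in NC replicates 1, 2 and 3. The 0 of NC replicate 2 allows up to 0.130 CPM (3 counts, counting error only). Outside replicate 1 the gene had 5 counts in 4 libraries, while HOXA10 had 4242. In the libraries of replicate 1, which had about equal amounts of HOXA11 in both groups (0.366 CPM per kb in KD and 0.350 in NC), genes of the other HOX clusters that were nearly silent elsewhere had similar levels, and the part of these libraries' reads outside genes in the HOXA11 counts was not tested.

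The promoter sequences of HOXA7, HOXA9 and HOXA10 are shown beside that of HOXA11 because HOXA10 and HOXA11 lie side by side and differ widely in level. KMT2A binds unmethylated CpG dinucleotides through a zinc finger domain kept in its fusion proteins, and CG pairs are in capitals. Each window runs 5′ to 3′ from 250 bases before to 50 bases after the gene's outermost RefSeq start (GRCh38.p14, minus strand), at chr7:27156626-27156925 for HOXA7, chr7:27165488-27165787 for HOXA9, chr7:27179812-27180111 for HOXA10 and chr7:27185183-27185482 for HOXA11.
HOXA7: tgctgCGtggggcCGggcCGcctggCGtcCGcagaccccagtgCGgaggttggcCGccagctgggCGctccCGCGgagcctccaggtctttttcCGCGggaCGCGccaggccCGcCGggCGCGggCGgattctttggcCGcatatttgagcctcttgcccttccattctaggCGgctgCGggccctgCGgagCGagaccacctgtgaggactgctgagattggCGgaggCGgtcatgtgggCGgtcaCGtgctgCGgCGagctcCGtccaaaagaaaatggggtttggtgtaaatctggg
HOXA9: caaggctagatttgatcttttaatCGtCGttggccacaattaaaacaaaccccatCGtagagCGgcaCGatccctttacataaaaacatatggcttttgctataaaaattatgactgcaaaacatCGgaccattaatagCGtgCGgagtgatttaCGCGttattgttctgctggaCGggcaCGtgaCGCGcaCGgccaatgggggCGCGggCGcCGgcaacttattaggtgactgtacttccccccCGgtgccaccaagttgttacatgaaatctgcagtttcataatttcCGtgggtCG
HOXA10: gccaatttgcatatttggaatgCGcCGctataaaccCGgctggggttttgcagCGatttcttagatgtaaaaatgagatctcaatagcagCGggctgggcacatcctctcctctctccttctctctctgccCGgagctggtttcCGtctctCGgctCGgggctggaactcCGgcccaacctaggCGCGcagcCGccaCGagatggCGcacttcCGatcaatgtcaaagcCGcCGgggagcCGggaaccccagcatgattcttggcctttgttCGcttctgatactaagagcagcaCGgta
HOXA11: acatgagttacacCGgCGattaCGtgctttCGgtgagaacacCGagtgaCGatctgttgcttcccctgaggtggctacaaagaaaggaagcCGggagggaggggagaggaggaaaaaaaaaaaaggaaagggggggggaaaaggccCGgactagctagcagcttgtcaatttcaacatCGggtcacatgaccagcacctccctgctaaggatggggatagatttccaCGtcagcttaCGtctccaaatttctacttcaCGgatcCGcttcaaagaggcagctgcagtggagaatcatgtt
HOXA7 held 31 CG pairs, HOXA9 22, HOXA10 21 and HOXA11 13. Among 35116 RefSeq promoter windows of 300 bases the median was 14, and 20.7%, 37.7%, 39.5% and 51.7% of windows held at least as many as these 4 genes. The pattern CG reads the same on both strands. The order of CG counts in these windows matched the order of the levels for HOXA7, HOXA9, HOXA10 and HOXA11. The match depends on the start used: the window of another HOXA10 start (chr7:27174271-27174570) held 25 CG pairs, more than that of HOXA9. It also rests on the order of HOXA7 and HOXA9, whose levels did not differ beyond their spread with the longest transcript as length. It did not extend beyond these genes: HOXA4, with a low level, held 27 CG pairs and HOXA6 held 29. RefSeq windows were found for 8 of the 9 genes, all but HOXA5.

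HOXA5, HOXA6 and HOXA3 formed a middle tier. HOXA5, needed for lung development in mice, had 4.43 ± 0.452 CPM per kb in KD libraries, against 4.36 ± 0.640 in NC libraries (SD, n = 3 each). HOXA6, its neighbour, whose role in blood is less well defined, had 3.66 ± 0.721 CPM per kb in KD libraries, against 4.15 ± 1.29 in NC libraries. HOXA3, which in mice directs thymus and parathyroid formation, had 1.70 ± 0.0172 CPM per kb in KD libraries, against 1.96 ± 0.128 in NC libraries. HOXA6 was lowest in the replicate 1 library of each group.

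HOXA4 and HOXA2 were low but were counted in every library. HOXA4, which takes part in patterning the neck vertebrae in mice, had 12, 24 and 15 counts in replicates 1, 2 and 3 of KD, and 5, 18 and 22 in NC, or 0.459 ± 0.0768 CPM per kb in KD libraries, against 0.392 ± 0.193 in NC libraries (SD, n = 3 each). HOXA2, which specifies the second branchial arch, had 13, 25 and 5 counts in KD, and 14, 14 and 17 in NC, or 0.268 ± 0.149 CPM per kb in KD libraries, against 0.301 ± 0.0532 in NC libraries. The 5 counts of HOXA2 in KD replicate 3 and of HOXA4 in NC replicate 1 were the lowest for each gene.

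**Figure D1:**
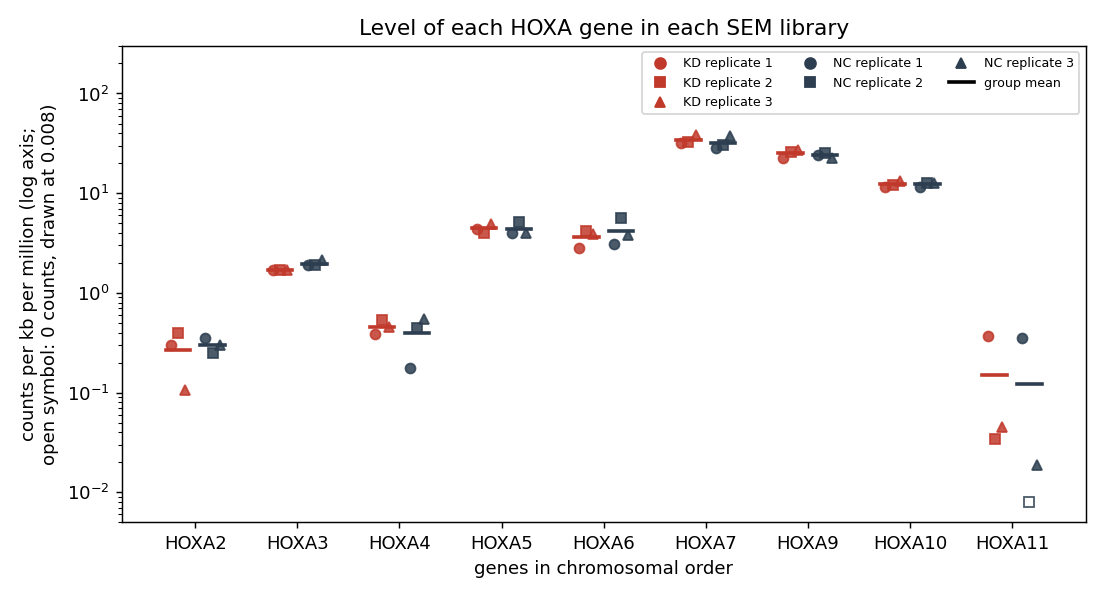
Level of each HOXA gene, in chromosomal order, in CPM per kb of exon on a log axis. Points are single libraries of KD (left) and NC (right), bars are group means, and an open symbol drawn at 0.008 is a library with 0 counts. HOXA7, HOXA9 and HOXA10 sit at 11.4 to 38.7 in all 6 libraries, while HOXA11 falls to 0.0455 or less outside replicate 1.

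By level the order was HOXA7, HOXA9, HOXA10, HOXA5, HOXA6, HOXA3, HOXA4, HOXA2 and HOXA11. Neighbours in this order were compared within each library, with the union of a gene's exons as its length. An offset of 0.01 CPM per kb was added before logs were taken. HOXA7 lay above HOXA9 in 6 of 6 libraries, by 0.43 ± 0.19 on the log2 scale (SD, n = 6), HOXA9 above HOXA10 in 6 of 6 by 1.00 ± 0.09, and HOXA10 above HOXA5 in 6 of 6 by 1.49 ± 0.14. HOXA6 lay above HOXA3 in 6 of 6 by 1.06 ± 0.35, and HOXA3 above HOXA4 in 6 of 6 by 2.16 ± 0.60. HOXA5 and HOXA6 did not differ beyond their spread (0.20 ± 0.29, HOXA5 higher in 4 of 6 libraries), nor did HOXA4 and HOXA2 (0.58 ± 0.95, in order in 5 of 6). HOXA2 and HOXA11 differed by 2.02 ± 2.04, in order in 5 of 6. They were close in replicate 1 (0.298 and 0.366 CPM per kb in KD, 0.354 and 0.350 in NC). In each library of replicates 2 and 3 HOXA2 was the higher, at 0.107 to 0.400 in KD and 0.248 to 0.302 in NC. HOXA11 there had 0.0341 to 0.0455 in KD and 0 to 0.0190 in NC. When each length was limited to exon bases that no other gene covers, HOXA7 moved from a mean over the 6 libraries of 33.2 to 88.7 CPM per kb, HOXA6 from 3.91 to 6.52 and HOXA4 from 0.426 to 0.807, and HOXA6 came above HOXA5 in 6 of 6 libraries. The counts were left whole in this step, so these levels are too high for any gene whose shared bases also gave counts. With the length of the longest transcript HOXA6 averaged 5.08 and HOXA5 4.53 CPM per kb, with HOXA5 higher in 2 of 6 libraries. With that length HOXA7 and HOXA9 did not differ beyond their spread either (0.13 ± 0.19 on the log2 scale, HOXA7 higher in 4 of 6 libraries), so their order depends on the length used.

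Among the listed non-coding genes of the locus, HOXA10-AS, antisense to HOXA10, had the most counts over the 6 libraries, with 161, 275 and 162 counts in replicates 1, 2 and 3 of KD and 113, 176 and 183 in NC. HOXA-AS3, whose exons overlap those of HOXA6 and HOXA7 on the other strand, had 161, 75 and 78 counts in KD and 121, 94 and 120 in NC. HOTAIRM1, a non-coding RNA beside HOXA2 known from myeloid differentiation, had 3 to 12 counts in KD and 3 to 9 in NC. HOXA-AS2, HOXA11-AS and HOTTIP, the last a non-coding RNA known to bind the KMT2A complex subunit WDR5, had 3, 1 and 16 counts in all over the 4 libraries of replicates 2 and 3. HOXA13, which lies beyond HOXA11 and patterns the hand and foot, was also low, at 5 to 6 counts in KD and 5 to 9 in NC. Without a known strand setting, a gene and its antisense partner cannot be told apart.

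**Figure D2:**
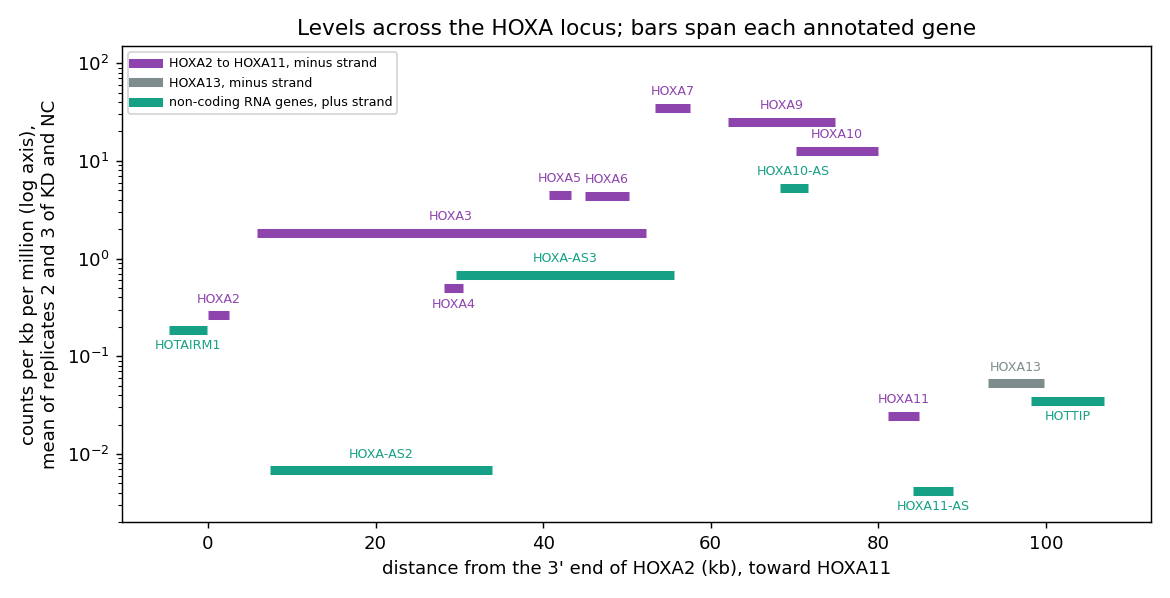
Mean level of annotated genes of the HOXA locus over the 4 libraries of replicates 2 and 3 (CPM per kb, log axis) against distance from the 3′ end of HOXA2 in kb. Each bar spans one gene, and colours give HOXA2 to HOXA11 and HOXA13 on the minus strand and non-coding genes on the plus strand. The level is 34.8 for HOXA7, 25.1 for HOXA9 and 12.7 for HOXA10, and 0.0246 for HOXA11 beyond them.

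The genes of the HOXB, HOXC and HOXD clusters were nearly silent, with HOXC4 and HOXB7 as exceptions. Of 28 such genes, 22 had at most 5 counts in each library of replicates 2 and 3. HOXC4 had 4.03 CPM per kb in KD and 4.01 in NC, close to the level of HOXA5, and HOXB7 had 3.22 in KD and 2.47 in NC. The median of the 28 genes was 0.524, 0.0183 and 0.0214 CPM per kb in replicates 1, 2 and 3 of KD, and 0.494, 0.00292 and 0.00293 in NC. The 3 low HOXA genes can be set beside these medians. HOXA2 and HOXA4 lay above the median in the libraries of replicates 2 and 3, at 0.107 to 0.540 CPM per kb in KD and 0.248 to 0.551 in NC, and below it in replicate 1, at 0.298 and 0.387 in KD and 0.354 and 0.178 in NC. HOXA11 lay below the median in replicate 1 of both groups and in NC replicate 2, and above it in the other 3 libraries, on 1 or 2 counts.

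**Figure D3:**
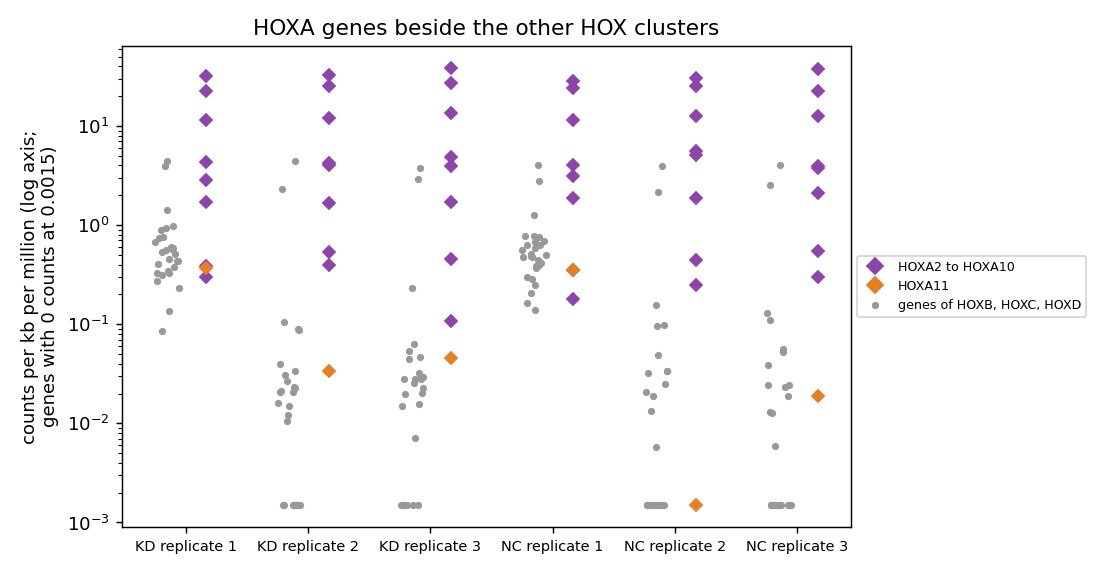
Level per library (CPM per kb, log axis) of HOXA2 to HOXA10 and HOXA11 (diamonds) and of 28 genes of the other HOX clusters (dots), with genes at 0 counts drawn at 0.0015. In replicate 1 of KD and NC all 28 other HOX genes have a count, with medians of 0.524 and 0.494, and HOXA11 lies among them.

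The comparison of KD with NC addresses whether silencing AK_8_2 changes the levels of HOXA genes, which the fusion protein is known to keep active. No HOXA gene passed the test. Of the 9 genes, 8 passed the filter on low counts (all but HOXA11). Of these 8, the quasi-likelihood test of edgeR, adjusted by Benjamini-Hochberg over all genes, called 0, where it called 0 of 16929 genes (0%), and DESeq2 called 0 of the 8 and 1 gene in all. At an unadjusted p under 0.05 the test had 52 genes and 0 of the HOXA genes. When same-numbered libraries were paired by a block term, 29 genes were called (0.171%) and again 0 of the 8 (841 genes and 0 HOXA genes at an unadjusted p under 0.05). With no difference anywhere, a share of about 0.05 of the 16929 genes would pass, more than the 52 and close to the 841. The common biological coefficient of variation (spread between libraries beyond counting error) was 0.372 without the block and 0.068 with it. The lack of calls therefore says little about the 8 genes. The median log2 fold change of the 8 genes was 0.01 without the block, against -0.0036 over all tested genes, and 0.01 with it, against -0.0051. Together the 9 genes had 208, 223 and 247 CPM in replicates 1, 2 and 3 of KD, and 206, 223 and 227 CPM in NC, so the groups overlapped.

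HOXA7 had 76.4, 78.5 and 93.3 CPM in replicates 1, 2 and 3 of KD, and 68.6, 74.0 and 90.1 CPM in NC. In both groups replicate 3 was highest, the groups overlapped, and KD was the higher library within each replicate number. The log2 fold change was 0.09 (SE 0.14, 95% interval -0.23 to 0.42) without the block and 0.09 (SE 0.05, interval -0.02 to 0.21) with it (edgeR quasi-likelihood, adjusted p 1.00 and 0.999). HOXA9 had 68.7, 77.6 and 82.2 CPM in KD, and 73.2, 76.9 and 67.8 CPM in NC. Here the NC library of replicate 3 was the lowest of all 6 and the KD library of the same number the highest, and within replicate 1 the order was the opposite. Its log2 fold change was 0.07, with an interval of -0.18 to 0.32 without and -0.07 to 0.21 with the block. HOXA10 had 42.3, 45.1 and 49.6 CPM in KD, and 42.7, 46.7 and 47.0 CPM in NC, and its fold change of 0.01 (interval -0.22 to 0.23 without and -0.13 to 0.14 with the block) was the smallest of the 8.

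HOXA7 had 1.11, 1.01 and 1.13 counts per HOXA9 count in replicates 1, 2 and 3 of KD, and 0.937, 0.963 and 1.33 in NC. HOXA10 had 0.616, 0.581 and 0.604 counts per HOXA9 count in KD, and 0.583, 0.607 and 0.694 in NC. In both ratios NC replicate 3 was highest, and for HOXA7 over HOXA9 the other 2 NC libraries lay below all 3 KD libraries. The spread between libraries exceeded counting error for these genes: the SD of log2 CPM of HOXA7 was 0.16 in KD and 0.20 in NC, where counting alone gives 0.036.

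HOXA3 was the 1 gene of the 8 whose groups did not overlap. It had 7.38, 7.23 and 7.30 CPM in replicates 1, 2 and 3 of KD, and 8.14, 8.13 and 9.09 CPM in NC, so all KD libraries lay below all NC libraries. Of all tested genes, 3.43% had groups that did not overlap, in either direction. The log2 fold change was -0.21 (SE 0.17, interval -0.60 to 0.18) without the block and -0.21 (SE 0.13, interval -0.49 to 0.06) with it (edgeR quasi-likelihood, adjusted p 1.00 and 0.999, unadjusted p 0.240 and 0.121). Its counts were 131 to 184 in KD and 131 to 208 in NC, and the KD libraries lay closer together (SD of log2 CPM 0.014) than counting error alone gives (0.115). Without NC replicate 3 the fold change was -0.13.

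HOXA5 had 7.43, 6.87 and 8.40 CPM in KD, and 6.84, 8.70 and 6.78 CPM in NC. The highest and the lowest library were both NC libraries, and the log2 fold change was 0.02 (interval -0.45 to 0.50 without and -0.29 to 0.33 with the block). HOXA6 had 3.66, 5.42 and 5.04 CPM in KD, and 3.98, 7.18 and 4.85 CPM in NC. The NC library of replicate 2 stood above the other 5, and the fold change was -0.18 (interval -0.93 to 0.57 without and -0.52 to 0.18 with the block), with a value of 0.11 when that library was left out.

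For the rarest genes the data set wide limits. HOXA4 had 0.676, 0.943 and 0.787 CPM in KD, and 0.311, 0.783 and 0.962 CPM in NC, with a log2 fold change of 0.21 and an interval of -1.03 to 1.46 without and -0.68 to 1.18 with the block. HOXA2 had 0.732, 0.982 and 0.262 CPM in KD, and 0.870, 0.609 and 0.743 CPM in NC, with a fold change of -0.15 and an interval of -1.49 to 1.18 without and -1.24 to 0.82 with the block. The groups overlapped for both genes, and without the block both intervals held a 2-fold change in either direction. For the other 6 tested genes the interval lay inside a 2-fold change without the block and inside a 1.5-fold change with it. That leaves smaller differences undetermined and does not show equal levels.

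**Figure D4:**
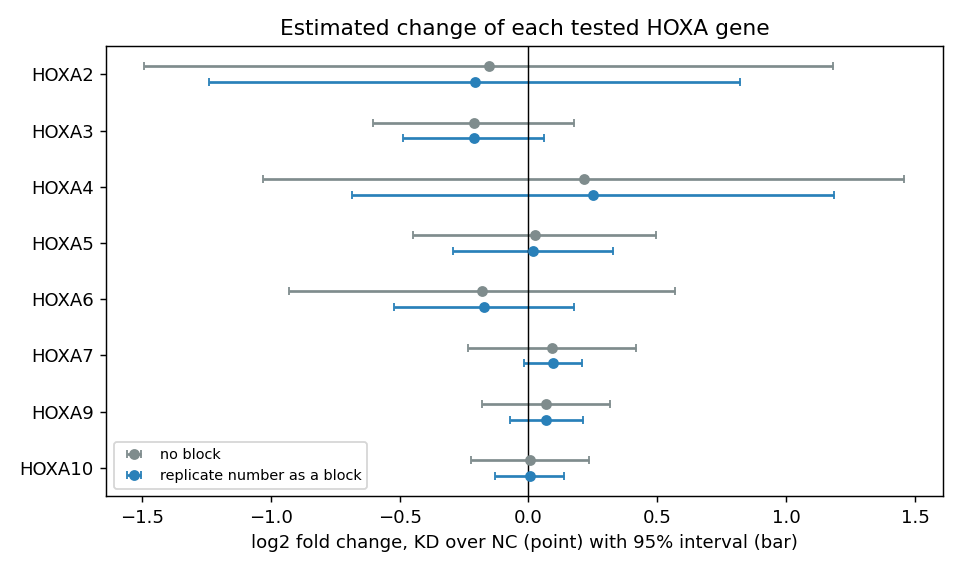
Log2 fold change of KD over NC for the 8 tested HOXA genes with its 95% interval, from the fit without a block and with the replicate number as a block. Every interval includes 0, and the widest, for HOXA2, runs from -1.49 to 1.18 without the block.

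Within the replicate numbers, 2 of the 8 tested genes kept 1 sign in all 3 pairs (differences of log2 CPM), a share of genes close to the 25.7% found over all tested genes. HOXA3 differed by -0.14, -0.17 and -0.31 in pairs 1, 2 and 3 and HOXA7 by 0.15, 0.08 and 0.05. HOXA9 differed by -0.09, 0.01 and 0.28, HOXA10 by -0.01, -0.05 and 0.08 and HOXA5 by 0.12, -0.34 and 0.31. HOXA6 differed by -0.12, -0.40 and 0.05. The largest differences were those of the 2 rarest tested genes, HOXA2 (-0.22, 0.61 and -1.23) and HOXA4 (0.92, 0.24 and -0.26). The -1.23 of HOXA2 comes from 5 counts in KD replicate 3, the library in which 31.5% of records had several alignments, against at most 17.3% elsewhere. The part of that library in the value was not tested.

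**Figure D5:**
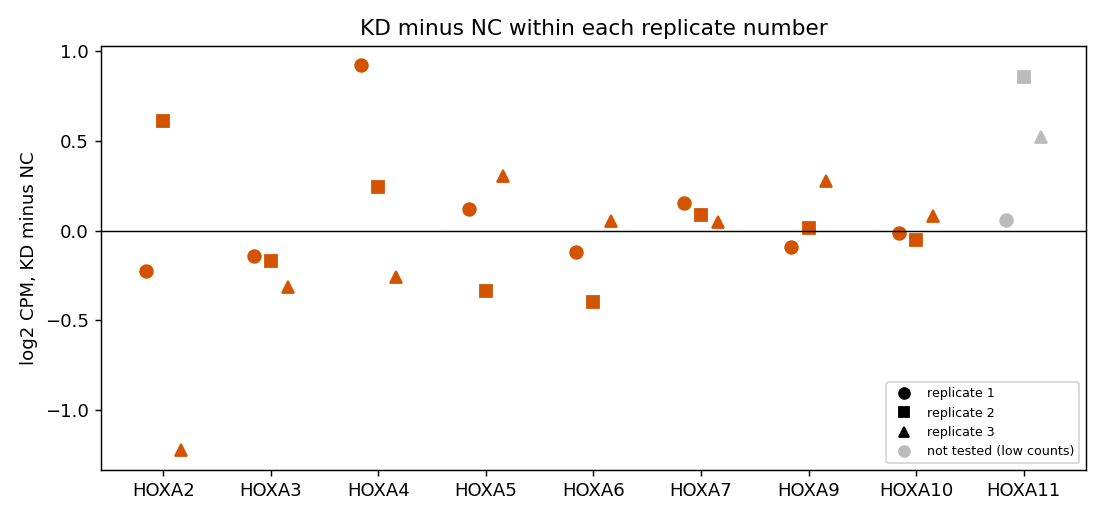
Difference of log2 CPM, KD minus NC, within each replicate number for the 9 HOXA genes in chromosomal order. The 3 points of HOXA3 lie below 0 (-0.31 to -0.14) and those of HOXA7 above it (0.05 to 0.15), and grey points are HOXA11, which was not tested.

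The regulators and partners of HOXA genes did not pass the test either, with or without the block (edgeR quasi-likelihood, Benjamini-Hochberg over all genes). Of 9 HOX cofactors, proteins that bind DNA with HOX factors, 7 were tested and 0 were called, 3 with a positive and 4 with a negative estimate (median log2 fold change -0.02). MEIS1 had 3360, 5115 and 4236 counts in the KD libraries, against 3057, 5227 and 4642 in the NC libraries. PBX3 had 65.8 ± 8.24 CPM in KD libraries, against 68.5 ± 5.31 in NC libraries (SD, n = 3 each) and PKNOX1 41.5 ± 3.76 in KD libraries, against 39.5 ± 3.46 in NC libraries. Of 25 genes of the KMT2A fusion complex and its elongation partners, all were tested and 0 were called (15 positive, 10 negative, median 0.0086). EAF2, a partner of the elongation factor ELL, had 12.3 ± 2.77 CPM in KD libraries, against 9.42 ± 0.510 in NC libraries, and PSIP1, which tethers KMT2A to chromatin, 420 ± 33.4 CPM in KD libraries, against 380 ± 10.4 in NC libraries. Of 18 Polycomb genes and related chromatin regulators, most of which act to silence HOX clusters, all were tested and 0 were called (8 positive, 10 negative, median -0.02), with BMI1 at 16.5 ± 2.66 CPM in KD libraries, against 18.7 ± 2.19 in NC libraries and EZH1 at 42.2 ± 6.59 in KD libraries, against 46.4 ± 7.78 in NC libraries.

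Genes reported as targets of HOXA9, mostly in mouse leukaemia models, were likewise without a call. Of 15 listed, 14 were tested (all but CD34), with 6 positive and 8 negative estimates, a median log2 fold change of -0.0051 and a range of -0.08 to 0.12. SOX4, a transcription factor of progenitor cells, had 125 ± 15.7 CPM in KD libraries, against 115 ± 20.1 in NC libraries (SD, n = 3 each), and MEF2C, a transcription factor of lymphoid and myeloid progenitors, 1251 ± 77.0 CPM in KD libraries, against 1193 ± 61.4 in NC libraries. In the HOXA locus, 9 of 11 flanking genes and 2 of the 7 listed non-coding genes found in the files were tested, and 0 were called in either group of genes. TAX1BP1, an autophagy receptor gene further along the chromosome, had 37.7 ± 2.96 CPM in KD libraries, against 39.4 ± 2.94 in NC libraries. HOXA10-AS had 9.46 ± 1.20 CPM in KD libraries, against 7.56 ± 0.495 in NC libraries, 0.32 on the log2 scale with an SE of 0.17 (edgeR, unadjusted p 0.105, adjusted p 1.00). Its 3 KD libraries had 161, 275 and 162 counts and HOXA10, on the other strand and partly over the same bases, 751, 1147 and 946.

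The profile of HOXA7, the gene with the highest mean count, was compared with those of 12191 other protein-coding genes over the 6 libraries, by the root mean square difference of log2 CPM after each gene's mean was subtracted. The 5 closest were TSC22D1 (0.022), LRRC20 (0.024), MRPL17 (0.025), PROSER2 (0.036) and RPS6KB1 (0.038). Among the HOXA genes HOXA10 was nearest, at 0.10 and rank 662, followed by HOXA9 at 0.17 and rank 4303, HOXA3 at 0.19 and rank 5455 and HOXA5 at 0.19 and rank 5687. HOXA6, HOXA4 and HOXA2 ranked 9128, 9552 and 10568. These distances describe 6 libraries whose same-numbered members deviate together, as do replicates 2 and 3 across numbers. Many genes lie nearer to HOXA7 than its neighbours on the chromosome do.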

How the data were processed

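Total RNA of 3 KD and 3 NC cultures was sequenced, and sample titles gave groups and replicate numbers. Raw read counts per Ensembl gene were deposited. The submitters' processing notes name hg38, HTSeq 0.11.1, STAR 2.7.10a, DESeq2 and FastQC 0.11.8. The sources used here give no annotation release, strand setting or overlap mode. Library sizes and tests leave out the 5 summary lines of each file. Of 62703 identifiers 62686 matched the symbol table, and a repeated symbol was given to the identifier with the highest mean count. Lengths and overlaps are from GENCODE 29 (GRCh38), which is not known to be the release used for counting, and promoter windows are from RefSeq (GRCh38.p14).

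Genes were tested with edgeR 4.0.16 in R 4.3.3 (filterByExpr, TMM, robust quasi-likelihood fit, group as the only term, adjusted p under 0.05 over 16929 genes) and DESeq2 1.42.0. The p-values measure the spread between these libraries, which may be technical. Without the block, that spread includes the difference of replicate 1 from the other libraries, which KD and NC share. The test without the block is therefore the more cautious of these fits. Standard errors are the fold change over the root of F. The fit was tested on simulated data, with results not given here. For the fit without the block, all simulated libraries shared a common profile. That simulation lacks the difference of replicate 1, so it does not show how the fit behaves on these libraries. Log2 CPM values use a prior count of 2. No 2 libraries of a group were alike within sampling noise (chi-square over its degrees of freedom 23.4 to 95.8). The labels do not state a pairing. Deviations from the group means correlated at 0.89, 0.62 and 0.61 between same-numbered libraries, above the limit of 0.1 for treating numbers as pairs, so paired values are given. The correlation was nearly as high across numbers, at 0.59 for KD replicate 2 with NC replicate 3 and 0.55 for KD replicate 3 with NC replicate 2. Replicate 1 of either group correlated at -0.75 to -0.71 with replicates 2 and 3 of the other. These values set replicate 1 apart but do not show that replicates 2 and 3 are paired by number. Members, gene lists and tests were chosen with earlier results of these data known. All 9 members were named, and from each list other than the cell type markers the 2 tested genes with the smallest p, of which 1 is not reported here. MEIS1, HOXC4, HOXB7, HOXA10-AS and the other genes of the HOXA locus are named as well. The limit given for a count of 0 covers counting error only.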

Additional observations from a re-analysis of the deposited data

How the results depend on the processing

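No HOXA gene was called in any of the 15 alternatives run (edgeR or DESeq2, smallest adjusted p 0.980). In 10 of the 15 no gene of any kind was called, so the lack of HOXA calls there says little. HOXA3 alone kept its sign in all 15 (-0.25 to -0.13). The other 7 tested genes changed sign at least once, in 19 of 120 fold changes, each time at values that did not pass the test. With library totals in place of TMM factors HOXA5 was at -0.015 and HOXA10 at -0.040, and with no filter on low counts HOXA10 was at -0.0054. Leaving out 1 library, or 1 pair in the paired fit, gave -0.81 to 0.26 for HOXA2, -0.12 to 0.58 for HOXA4, -0.13 to 0.21 for HOXA5, -0.35 to 0.11 for HOXA6, -0.036 to 0.24 for HOXA7, -0.033 to 0.15 for HOXA9 and -0.087 to 0.063 for HOXA10. Leaving out KD replicate 3 turned HOXA2, HOXA5, HOXA7, HOXA9 and HOXA10, in a fit of 31605 genes whose median log2 fold change was 0.10. Leaving out NC replicate 1 turned HOXA4, HOXA5 and HOXA10, NC replicate 2 HOXA6, NC replicate 3 HOXA5 and KD replicate 2 HOXA10. Over all genes, DESeq2 called 1 and the paired fit with the replicate block 29, and leaving out a library or pair gave 0 to 119 calls, the fits differing in the number of genes tested (16344 to 31605). The cause of these changes was not tested. With the block, as without it, no HOXA gene and no gene of the lists was called. Depth limits HOXA2, HOXA4 and HOXA11, with 88, 96 and 33 counts over the 6 libraries.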
